A study of Rattus norvegicus with 6 samples.

Results

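The voltage-gated sodium and calcium channel genes are described here in the hippocampus of Sprague Dawley rats, 3 libraries from rats exposed to single prolonged stress (SPS) and 3 from Control rats. The members were all rows of the deposited expression table whose symbol names a sodium channel alpha or beta subunit, or a calcium channel alpha1, beta or alpha2delta subunit. There were 31 of them among 22062 genes: 10 sodium alpha, 4 sodium beta, 9 calcium alpha1, 4 calcium beta and 4 calcium alpha2delta genes. The SPS procedure joined 2 hours of restraint, a forced swim of 20 minutes at 24 °C, 15 minutes of rest and anaesthesia to loss of consciousness, while Control rats stayed unhandled in their home cages. Age, sex, the time from stress to dissection and any pooling of animals were not given in the sources used here. The labels do not say that each sample was a separate animal, so p-values measure the spread between these samples, which may be partly technical.

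Voltage-gated sodium channels carry the inward current of the action potential. Their alpha subunit forms the pore, and beta subunits, small proteins with an immunoglobulin fold, tune gating and membrane targeting. Voltage-gated calcium channels turn depolarisation into calcium entry, which drives transmitter release, dendritic signalling and transcription. Here too a pore, the alpha1 subunit, sets the channel type, while the cytoplasmic beta and the extracellular alpha2delta subunits control how many channels reach the membrane.

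No channel gene differed detectably between SPS and Control at this replication. In a test chosen after the data were seen, 11 of the 24 tested (45.8%) differed between the replicate numbers of the libraries, as did 14.1% of all tested genes. Without Control replicate 3 or without SPS replicate 3, 0 members and 0 of all genes differed. Such counts cannot show which libraries the calls rest on. Most sodium and calcium pore genes were more abundant in both libraries numbered 3, Control and SPS alike, than in the others, with Cacna1e 2.65 higher than in number 1 on the log2 scale. The library SPS replicate 2 was lowest for 17 of the 24 (70.8%) and for 32.4% of all tested genes. Of the 31 members, 24 passed the expression filter and were tested for a group difference. Those that did not pass included Scn7a, Scn10a, Scn11a, Cacna1s, Cacna1f and Cacna2d4, channels best known from glia, sensory ganglia, skeletal muscle and retina, with 1 to 14 reads in all 6 libraries together.

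Depth was 4081184 to 11838770 reads per library, and the channel genes held between 8668 reads, in SPS replicate 2, and 47932, in SPS replicate 1. They took 0.389%, 0.309% and 0.586% of reads in the Control libraries numbered 1, 2 and 3 and 0.430%, 0.212% and 0.553% in the SPS libraries. All 12 neuron markers checked, such as Snap25 and Rbfox3, were expressed, at summed levels of 8526 to 12106 CPM in Control and 5124 to 11131 in SPS, where CPM are TMM-normalised read counts per 1000000 reads. SPS replicate 2 stood apart: it had the lowest neuron sum, the highest sum of 15 oligodendrocyte markers (31319 CPM against at most 16202 elsewhere) and 35982 CPM of the 6 tested of 12 choroid plexus markers against at most 252, although the choroid marker Otx2 had 0 reads in every library. Mitochondrial genes took 15.6%, 11.2% and 5.94% of reads in the Control libraries and 13.2%, 8.95% and 5.25% in the SPS libraries. Per-library values below are listed in the order of replicates 1, 2 and 3. In bulk tissue, fewer cells of a type and less RNA per cell cannot be told apart.

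RefSeq promoter windows of build GRCr8, 250 bases before to 50 after a gene's annotated start, were found for 22 of the 31 members. The annotated starts were not checked against transcription start sites. In the windows of Cacna2d3 and Cacna1a the last 50 bases begin with ATG, so the start used may be the start codon. Such windows may hold transcribed and coding sequence, which limits the base and motif counts below as promoter features. They are shown for the leading pair of sodium alpha genes, which were both highest in the libraries numbered 3, and for the only members whose SPS and Control values did not overlap. Capitals mark the SP1 box, searched as GGGCGG on both strands with overlaps counted. The windows are Scn2a, chr3:70710706-70711005 on the plus strand, Scn8a, chr7:133860977-133861276 on the plus strand, Cacna2d3, chr16:4918850-4919149 on the minus strand, and Cacnb3, chr7:131666301-131666600 on the plus strand.
Scn2a: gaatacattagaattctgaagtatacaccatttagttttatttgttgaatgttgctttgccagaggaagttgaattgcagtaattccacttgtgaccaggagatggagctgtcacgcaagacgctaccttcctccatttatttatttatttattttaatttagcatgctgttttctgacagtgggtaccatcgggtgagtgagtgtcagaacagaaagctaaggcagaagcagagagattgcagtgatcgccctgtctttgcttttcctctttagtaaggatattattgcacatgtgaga
Scn8a: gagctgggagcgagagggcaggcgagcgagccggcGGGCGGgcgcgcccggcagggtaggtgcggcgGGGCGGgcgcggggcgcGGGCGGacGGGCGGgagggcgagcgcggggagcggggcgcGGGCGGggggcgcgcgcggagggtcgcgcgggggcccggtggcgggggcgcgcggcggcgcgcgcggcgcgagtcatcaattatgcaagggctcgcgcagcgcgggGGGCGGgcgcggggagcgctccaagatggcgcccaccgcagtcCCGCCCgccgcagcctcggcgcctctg
Cacna2d3: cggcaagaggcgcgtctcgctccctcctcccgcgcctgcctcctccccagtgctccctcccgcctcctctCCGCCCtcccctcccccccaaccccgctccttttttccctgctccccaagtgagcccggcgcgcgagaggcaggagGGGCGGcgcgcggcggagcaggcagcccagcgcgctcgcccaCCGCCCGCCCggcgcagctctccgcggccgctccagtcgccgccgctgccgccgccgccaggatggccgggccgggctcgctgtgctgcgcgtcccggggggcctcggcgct
Cacnb3: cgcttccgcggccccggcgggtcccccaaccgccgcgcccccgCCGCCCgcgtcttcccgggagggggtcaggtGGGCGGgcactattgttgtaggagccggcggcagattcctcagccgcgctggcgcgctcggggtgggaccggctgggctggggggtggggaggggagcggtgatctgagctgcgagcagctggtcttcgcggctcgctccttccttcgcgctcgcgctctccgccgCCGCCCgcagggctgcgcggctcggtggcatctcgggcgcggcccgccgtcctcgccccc
The Scn2a window held 4 CpG dinucleotides, a GC content of 39.3% and no SP1 box, whereas the Scn8a window held 60 CpGs, 84.7% GC and 7 boxes. Cacna2d3 had 42 CpGs and 4 boxes and Cacnb3 44 and 3. An SP1 box was present in 9 of the 17 tested members with a window (52.9%) and in 33.1% of all 33469 windows. The 17 windows had a median of 34 CpGs and 71.7% GC, against 7 CpGs and 51.7% GC over all windows. For members 1 window was kept per symbol, whereas all windows were counted in the comparison. The cyclic AMP element TGACGTCA, the TATA box TATAAA and the left part of the repressor element RE1, TTCAGCACC, were in none of those 17 windows and in 1.83%, 14.2% and 0.356% of all windows. The right part, GGACAGC, was in 1 of the 17, that of Scn4a (5.88%), and in 6.59% of all.

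Scn2a encodes the sodium channel of proximal axon initial segments in pyramidal neurons, and Scn8a the channel of the distal initial segment and nodes of Ranvier. Scn2a (ENSRNOG00000005018, chromosome 3, 51508572 to 52120290 in the deposited table, build not given in the sources used here) had 266, 320 and 896 CPM in the Control libraries and 377, 186 and 821 CPM in the SPS libraries. Both libraries numbered 3 were high in either group, and the groups overlapped throughout. Its log2 fold change, SPS over Control, was −0.10 (SE 0.66; edgeR adjusted p = 1.00 over all tested genes). Scn8a (ENSRNOG00000005309, chromosome 7, 142575671 to 142684114) had 157, 156 and 658 CPM in the Control libraries and 318, 82.6 and 597 CPM in the SPS libraries. It showed a similar order, with SPS replicate 2 lowest, and a log2 fold change of 0.04 (SE 0.81; edgeR adjusted p = 1.00). Their promoter windows, shown above, differ in base composition.

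Per length, in FPKM, the order of the sodium pores was Scn2a, Scn8a, Scn3a, Scn1a. Scn2a was at 50.4 ± 31.8 FPKM in Control against 48.0 ± 31.1 in SPS (mean and SD, n = 3), and Scn8a at 41.8 ± 34.5 and 44.1 ± 32.2. These SDs are spreads between libraries, in which both genes were measured, and not of the difference between the genes. Library by library, Scn2a was above Scn8a except in SPS replicate 1, at 40.5 against 43.7 FPKM. Scn3a, abundant in embryonic brain, was at 8.25 ± 7.51 and 11.0 ± 9.49 FPKM. Scn1a, the channel of fast-spiking interneurons, was at 5.75 ± 4.43 and 6.48 ± 3.92, and below Scn3a in every library except both numbered 2. Scn9a, known from sensory neurons, was at 1.22 ± 1.13 and 0.740 ± 0.228 FPKM. Scn4a, the skeletal muscle channel, was lowest of the tested pores at 0.323 ± 0.139 and 0.576 ± 0.588; it had 0 reads in SPS replicate 2, where 3 reads would be 0.694 CPM. The genes Scn2a and Scn3a lie on a single span that 4 genes of the table share, and Scn9a on a span shared by 2, so reads of neighbours may be included. The 6 tested sodium alpha genes had 4 positive and 2 negative fold changes, a median of 0.08 and 0 past the test.

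**Figure D1:**
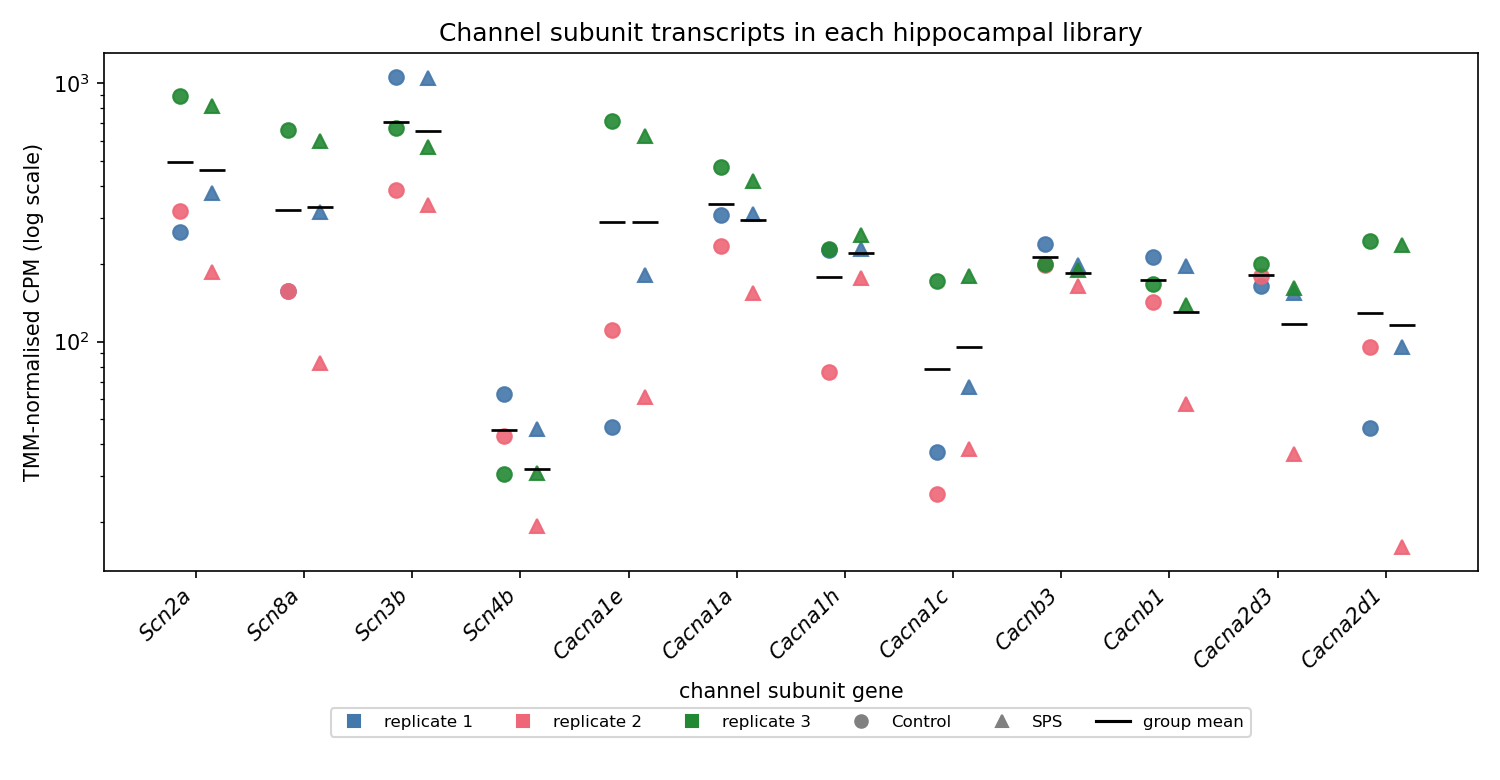
TMM-normalised CPM on a log axis of the 12 genes given in full, with circles for Control, triangles for SPS, colours for replicate number and bars for group means (n = 3). The pore genes Scn2a, Scn8a and Cacna1e are highest in both libraries numbered 3, up to 896 CPM for Scn2a, and group means lie close together for most genes.

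Among sodium beta subunits, Scn3b, which binds alpha subunits without a covalent link, had 1063, 386 and 675 CPM in the Control libraries and 1054, 337 and 569 CPM in the SPS libraries. Both libraries numbered 1 were highest, and each SPS library lay just below the Control library of its number, with a log2 fold change of −0.12 (SE 0.53; edgeR adjusted p = 1.00). Scn4b, which is disulphide-linked to the pore, had 62.4, 42.9 and 30.6 CPM in the Control libraries and 45.7, 19.2 and 30.9 CPM in the SPS libraries, and its log2 fold change was −0.50 (SE 0.46; unadjusted p = 0.304, edgeR adjusted p = 1.00). Leaving out Control replicate 1 gave −0.19, leaving out SPS replicate 2 gave −0.24 and leaving out SPS replicate 1 gave −0.87. Its groups overlapped, and SPS replicate 2 was again lowest. Scn2b, also disulphide-linked, ranged from 31.9 CPM in SPS replicate 2 to 234 in SPS replicate 3. Per length, Scn3b was at 169 ± 78.7 FPKM in Control and 160 ± 89.2 in SPS (SD, n = 3). The next were Scn2b at 108 ± 84.5 and 126 ± 105 FPKM and, lowest, Scn4b at 9.99 ± 3.70 and 7.09 ± 2.87.

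Of the calcium pores, Cacna1e, the R-type channel of dendrites and spines, varied the most between libraries. Cacna1e (ENSRNOG00000002863, chromosome 13, 71906701 to 72367980) had 46.7, 111 and 716 CPM in the Control libraries and 182, 61.1 and 627 CPM in the SPS libraries. The highest library held 15.3 times the level of the lowest, both of them Control libraries, and the log2 fold change between groups was −0.00 (SE 1.11; edgeR adjusted p = 1.00). Without Control replicate 3 it was 1.86 and without SPS replicate 3 it was −1.26, neither past the test. Cacna1a, the P/Q-type channel of presynaptic terminals, had 308, 235 and 476 CPM in the Control libraries and 313, 155 and 419 CPM in the SPS libraries, a log2 fold change of −0.20 (SE 0.46; edgeR adjusted p = 1.00).

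Cacna1h, a low-threshold T-type channel, had 227, 76.1 and 229 CPM in the Control libraries and 229, 176 and 258 CPM in the SPS libraries. Each SPS library was above the Control library of its number, by 0.01, 1.203 and 0.17 on the log2 scale, and Control replicate 2 alone was low. The log2 fold change was 0.32 (SE 0.47; unadjusted p = 0.517, edgeR adjusted p = 1.00), and −0.055 without that library. Cacna1h lies on a span shared with another gene. Cacna1c, the main L-type channel of brain, had 37.3, 25.6 and 172 CPM in the Control libraries and 66.5, 38.4 and 180 CPM in the SPS libraries. It too was above Control in every pair, by 0.83, 0.58 and 0.06 on the log2 scale, yet the groups overlapped almost completely. Its log2 fold change was 0.28 (SE 0.84; edgeR adjusted p = 1.00), and 0.49 (SE 0.22; unadjusted p = 0.0734, edgeR adjusted p = 0.967) with replicate as a block. These were the 2 members of 24 that were higher in SPS in all 3 pairs; 11.6% of all 12441 tested genes were.

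Among the other calcium pores, Cacna1b, the N-type presynaptic channel, ranged from 65.3 to 289 CPM, Cacna1d, the second neuronal L-type channel, from 20.4 to 174, and Cacna1g, another T-type channel, from 40.5 to 121. In FPKM the tested calcium pores ran from Cacna1e, at 38.5 ± 46.7 in Control and 39.4 ± 38.3 in SPS, and Cacna1a, at 34.2 ± 9.67 and 30.4 ± 11.9, down to Cacna1c at 9.45 ± 9.47 and 11.9 ± 8.82 and Cacna1g at 9.89 ± 1.60 and 10.2 ± 4.45 (SD, n = 3). The next gene, Cacna1h, was at 20.2 ± 9.18 in Control and 26.1 ± 3.27 in SPS. Its gap to Cacna1a was larger than either SD in Control but smaller than the SD of Cacna1a in SPS. In SPS replicate 2 Cacna1h was the higher, at 22.4 against 17.4 FPKM. The 7 tested alpha1 genes had 3 positive and 4 negative fold changes and 0 past the test.

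The auxiliary calcium subunits gave the members whose groups came closest to separating. Cacna2d3, an alpha2delta subunit (ENSRNOG00000031287, chromosome 16, 4871649 to 5795825), had 165, 179 and 199 CPM in the Control libraries and 154, 36.6 and 161 CPM in the SPS libraries. All SPS values lay below all Control values, narrowly in SPS replicates 1 and 3 and by a wide margin in SPS replicate 2. The log2 fold change was −0.63 (SE 0.54; unadjusted p = 0.284, edgeR adjusted p = 1.00), and it was −0.20 without SPS replicate 2. Cacna2d3 shares its span with 2 table rows of another symbol. Cacna2d1, the main target of gabapentin, had 46.3, 95.1 and 246 CPM in the Control libraries and 95.0, 15.97 and 237 CPM in the SPS libraries, highest in both libraries numbered 3 and lowest in SPS replicate 2, with a log2 fold change of −0.15 (SE 0.93; edgeR adjusted p = 1.00). Cacna2d2 ranged from 10.9 CPM, again in SPS replicate 2, to 41.4. In FPKM Cacna2d3 was at 52.3 ± 4.50 in Control and 33.9 ± 19.4 in SPS, Cacna2d1 at 29.9 ± 22.1 and 27.1 ± 25.1, and Cacna2d2 at 6.83 ± 1.08 and 6.02 ± 3.04 (SD, n = 3).

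Cacnb3, a calcium channel beta subunit (ENSRNOG00000054274, chromosome 7, 140315367 to 140324902), was the steadiest member, at 238.8, 198.4 and 199.8 CPM in Control and 198.2, 164.8 and 189.0 in SPS. The groups were separated by the gap between 198.4 and 198.2 CPM, and in FPKM they overlapped. Its log2 fold change was −0.21 (SE 0.29; unadjusted p = 0.502, edgeR adjusted p = 1.00), the smallest standard error among the members. Cacnb1, known as the skeletal muscle isoform and also expressed in brain, had 212, 142 and 167 CPM in the Control libraries and 196, 57.4 and 138 CPM in the SPS libraries. Every SPS library was below its Control partner, by far the most in the pair numbered 2. The log2 fold change was −0.41 (SE 0.47; unadjusted p = 0.411, edgeR adjusted p = 1.00), and −0.057 without SPS replicate 2. Cacnb2 ranged from 6.25 CPM in SPS replicate 2 to 90.9, and Cacnb4, whose loss causes the lethargic phenotype in mice, from 19.0 to 130. In FPKM Cacnb3 led at 81.2 ± 9.75 in Control and 71.7 ± 4.83 in SPS, followed by Cacnb1 at 50.6 ± 9.55 and 39.4 ± 20.8 (SD, n = 3). Cacnb2 was at 29.2 ± 14.8 and 26.1 ± 19.5 FPKM and Cacnb4 at 16.7 ± 12.7 and 15.3 ± 12.5. All 7 tested beta and alpha2delta genes had a negative fold change, as did 52.1% of all genes and 11 of the 12 neuron markers. The beta and alpha2delta medians were −0.19 and −0.21, against −0.02 over all genes and −0.28 over the neuron markers, and 0 of the 7 passed the test. The median log2 differences of beta and alpha2delta genes were 0.16 and 0.12 in the pair numbered 1, −1.29 and −2.27 in the pair numbered 2, which holds the library with the lowest neuron marker sum, and −0.18 and −0.08 in the pair numbered 3.

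Over all 24 tested members, 0 passed edgeR's quasi-likelihood test after Benjamini-Hochberg adjustment (background 0.0% of 12441 genes) and 0 had an unadjusted p under 0.05 (background 0.338%). DESeq2, limma and edgeR with replicate as a block also gave 0 of each (block background 1.38% unadjusted). The standard errors of the log2 fold changes ran from 0.29 to 1.37, which limits the differences that could be detected. There were 8 positive and 16 negative fold changes, with a median of −0.12. Leaving out Control replicate 3 made this median 0.46, leaving out SPS replicate 2 made it 0.31 and leaving out SPS replicate 3 made it −0.57, so its sign rests on single libraries. Groups did not overlap for 2 members, Cacna2d3 and Cacnb3, both lower in SPS (8.33%, background 1.4%), and for 0 members higher in SPS (background 1.54%). Lower in all 3 pairs were 4 members, Cacna2d3, Cacnb1, Cacnb3 and Scn3b, 16.7% against a background of 13.2%.

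**Figure D2:**
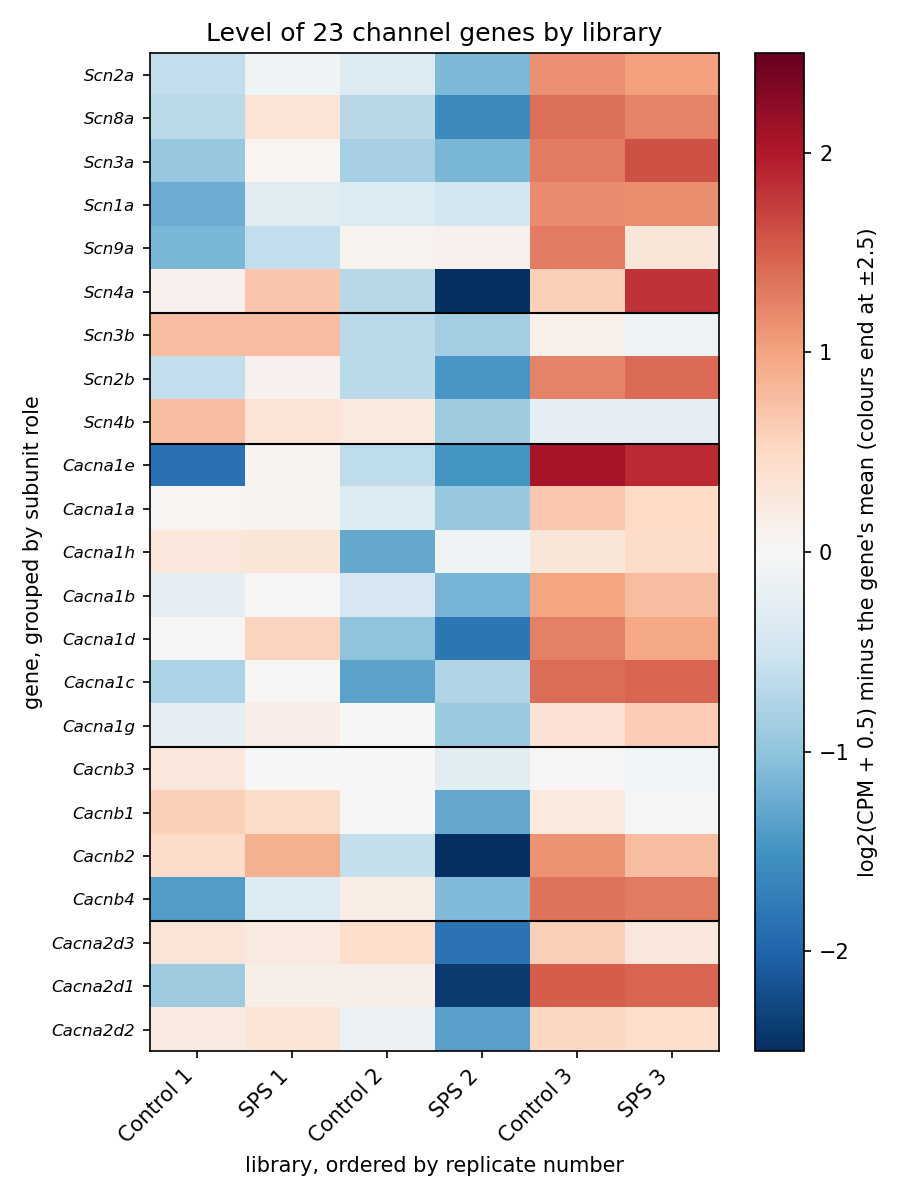
Colour gives log2(CPM + 0.5) minus the mean of each of 23 tested genes, with libraries ordered by replicate number and lines between subunit roles. Both libraries numbered 3 are high for sodium alpha and calcium alpha1 genes, Scn3b and Scn4b run otherwise, and most genes have their lowest value in SPS replicate 2.

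Within same-numbered pairs the members moved in different directions. In the pair numbered 1, 18 of 24 were higher in SPS (75.0%, background 50.7%), with a median log2 difference of 0.47 against 0.01 over all genes, and Cacna1e differed by 1.95. The pair numbered 2 had 21 of 24 lower in SPS (87.5%, background 54.4%) and a median of −0.78 against −0.10, with Cacna2d1 at −2.54, Cacna2d3 at −2.27 and Cacnb2 at −2.03. The 3 members higher in this pair were Cacna1h, at 1.203, Cacna1c, at 0.58, and Scn9a, at 0.02. The pair numbered 3 had 16 of 24 lower (66.7%, background 49.7%), but its median was −0.08 and most differences were small. SPS replicate 2 was the lowest of the 6 libraries for 17 of 24 members (70.8%, background 32.4%). That library also had the choroid plexus and oligodendrocyte sums given above and a neuron marker sum of 5124 CPM against 8526 in Control replicate 2; their part in the lower channel levels was not tested.

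**Figure D3:**
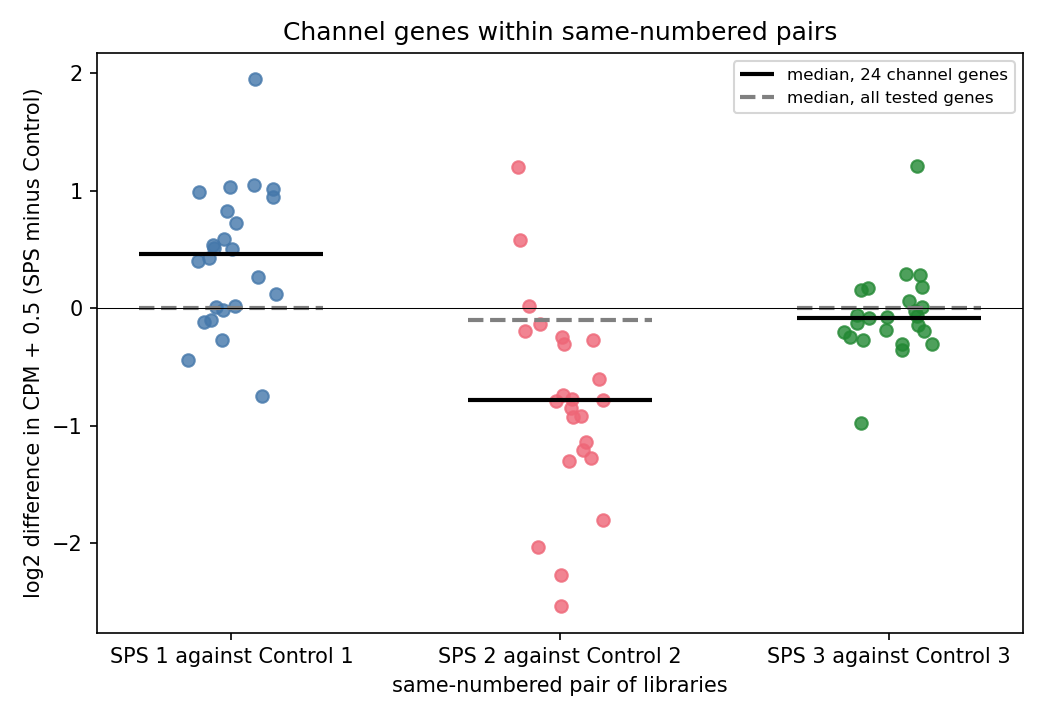
Each point is the log2 difference in CPM + 0.5, SPS minus Control, of 1 channel gene within a same-numbered pair, with solid bars for the median of 24 genes and dashed bars for the median of all tested genes. The channel median lies at 0.47, −0.78 and −0.08 in pairs 1, 2 and 3.

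In contrast to the groups, the replicate numbers separated many members. In a test chosen after the data were seen, edgeR's joint quasi-likelihood test of the number terms beside group, 11 of 24 members passed (adjusted p under 0.05; 45.8%, background 14.1%). They were Scn2a, Scn8a, Scn3a, Scn1a, Scn2b, Scn3b, Cacna1a, Cacna1b, Cacna1c, Cacna1d and Cacna1e. Of these, 10 were higher in number 3 than in number 1 and Scn3b was lower. The log2 difference between numbers 3 and 1 was 2.65 for Cacna1e (adjusted p = 0.0478 in edgeR), 1.83 for Cacna1c (adjusted p = 0.0211 in edgeR), 1.40 for Scn2a (adjusted p = 0.0368 in edgeR) and −0.77 for Scn3b (adjusted p = 0.0218 in edgeR). By role, 4 of 6 sodium alpha, 2 of 4 sodium beta and 5 of 7 calcium alpha1 genes passed, against 0 of 4 calcium beta and 0 of 3 alpha2delta genes; the difference between roles was not tested.

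The number of calls changed with the libraries left out. When 1 library is left out, the other library of its number is fitted exactly, so the spread comes from the remaining pairs alone. Such counts cannot show which libraries the calls rest on. Without Control replicate 3 or without SPS replicate 3, 0 members and 0 of all genes passed, and without both libraries numbered 2, 16 members passed, where 38.8% of all genes did. Without Control replicate 2 alone 22 passed, with 61.0% of all genes, and without SPS replicate 2 alone 18, with 45.1% of all genes. DESeq2 called 17 (70.8%, with 27.7% of all genes). Limma on log2(FPKM + 1) called 6 of 23 members (26.1%, with 14.7% of all genes), and 3 with a pseudocount of 0.1 (13.0%, with 9.77% of all genes). Both libraries numbered 3 lay above the other 4 for 16 of 24 members (66.7%, background 27.0%). The labels do not say what a replicate number stands for.

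Transcript length varied with this difference. Relative length, taken from the ratio of deposited count to FPKM and set to 1 for the median tested gene, had a median of 2.89 among the members. It was 3.90 for Scn2a, 3.99 for Cacna1a and 1.07 for Cacnb3. The 13 members at least 2 times as long as the median gene had a median difference in log2(CPM + 0.5) between numbers 3 and 1 of 1.44, and the 11 shorter members 0.17. Over all tested genes the same medians were 0.76 for 1668 long and −0.16 for 10773 shorter genes. Across genes, which share the same libraries and are not independent replicates, Spearman's rho between length and this difference was 0.34 for 24 members and 0.49 for 12441 genes. Scn2b, at a relative length of 0.40, had an edgeR log2 difference of 1.55 between numbers 3 and 1. Neuron markers had a median edgeR difference of −0.28 between these numbers but went both ways, with Map2 at 1.15 and Stmn3 at −1.51. Of the 12 markers, 8 were highest in a library numbered 1 and 2 in a library numbered 3. Their summed CPM was higher in number 3 than in number 1 in both groups, but Map2 weighs heavily in that sum. Map2 had 1400 and 3818 CPM in Control replicates 1 and 3 and 1850 and 3452 CPM in SPS replicates 1 and 3. The mitochondrial share was lowest in the libraries numbered 3. The part of length, of the mitochondrial share and of these markers in the channel levels was not tested. Among tested members with a promoter window, the edgeR log2 difference between numbers 3 and 1 had a median of 0.52 (−0.16 to 1.70) for the 9 with an SP1 box. For the 8 without it was 1.68 (−0.77 to 2.65), so the ranges overlapped, and the split was not tested.

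**Figure D4:**
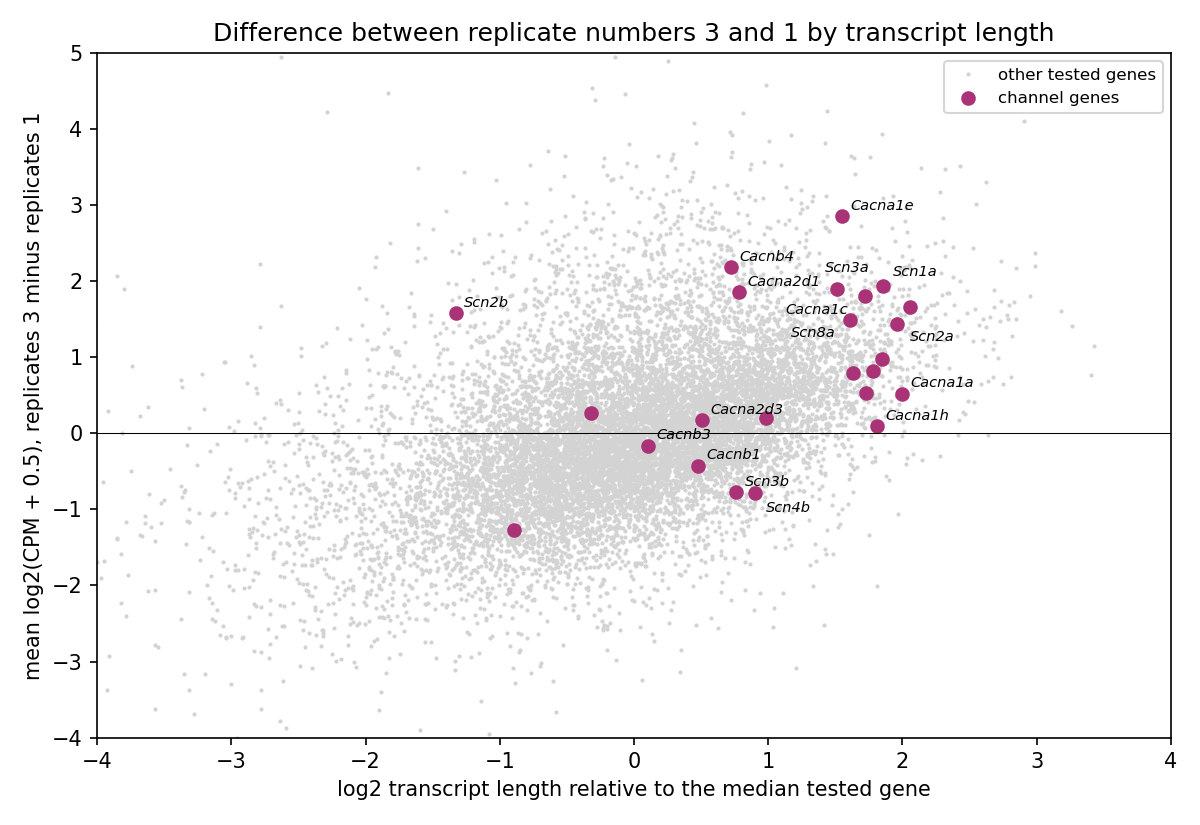
Log2 difference in CPM + 0.5 between replicates 3 and replicates 1, averaged over both groups, against log2 transcript length relative to the median tested gene. Channel genes (24 large points) lie over the other tested genes (grey), of which those beyond the axis limits are not drawn; long pore genes such as Cacna1e lie high, and Scn2b lies high at the short end.

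Shares of summed FPKM within a role compare subunits inside a library and do not depend on its depth. Scn2a took 50.4%, 52.8% and 43.6% of sodium alpha FPKM in the Control libraries and 41.7%, 50.4% and 42.4% in the SPS libraries. It was lower in SPS in each pair, but the groups overlapped (−4.12 percentage points; exact two-sided permutation test, p = 0.20). With 1 library left out, the difference ran from −2.16 points, without Control replicate 2, to −6.90, without SPS replicate 2. Cacna1b, the N-type pore, took 13.9%, 16.1% and 13.2% of calcium alpha1 FPKM in Control and 12.7%, 11.1% and 12.3% in SPS. It was the only share of 21 tested whose groups did not overlap, with means of 14.4% ± 1.51 and 12.03% ± 0.812 (SD, n = 3; exact permutation p = 0.10). That is the smallest p that 3 against 3 allows, and after adjustment over the 21 shares it was 1.00 (exact permutation test); this gene is named after its values were seen. Cacnb3 took 48.9%, 52.2% and 37.3% of calcium beta FPKM in Control and 41.4%, 70.8% and 39.9% in SPS, with the highest share in SPS replicate 2.

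The make-up of several roles varied with replicate number, which was not tested for shares. Averaged over both groups, Cacna1e took 13.1%, 16.4% and 36.5% of calcium alpha1 FPKM in numbers 1, 2 and 3, while Cacna1a took 27.9%, 27.8% and 17.9%. Scn2b took 10.4%, 9.60% and 41.5% of sodium beta FPKM. Among alpha2delta genes Cacna2d3 went from 66.1% and 64.2% to 44.1%, and Cacna2d1 from 23.6% and 25.6% to 48.8%. Within sodium alpha genes the shares of Scn2a, at 46.0%, 51.6% and 43.0%, were steadier.

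**Figure D5:**
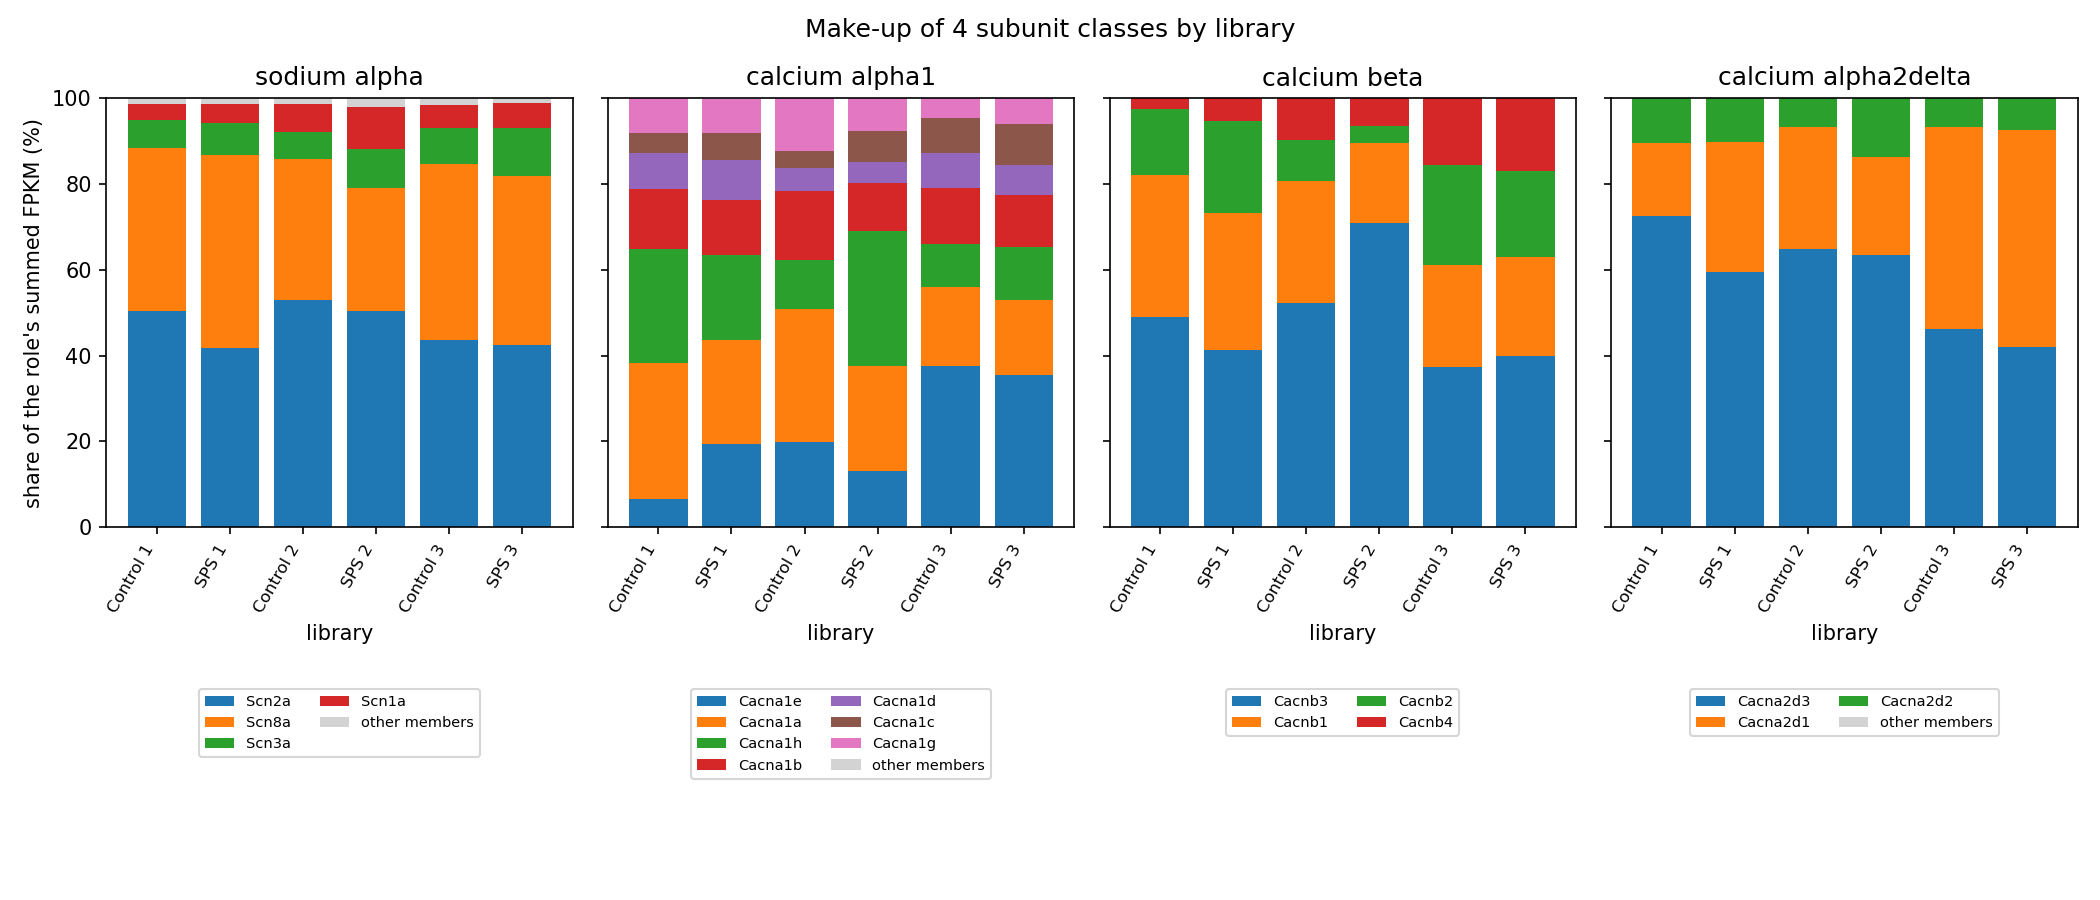
For 4 of the 5 roles, stacked bars give the share of a role's summed FPKM taken by its members in each library, ordered by replicate number, with members under a mean of 5% pooled. Cacna1e and Cacna2d1 take larger shares in both libraries numbered 3, and Control and SPS bars of that number look alike.

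Genes of proteins that anchor or regulate these channels did not differ detectably between groups either. Of 14 sodium channel partners (among them ankyrins, fibroblast growth factor homologous factors, cell adhesion molecules and the sodium leak channel complex), 0 passed the test in either direction and the median log2 fold change was 0.03. Nfasc, the neurofascin of initial segments and nodes, had 389, 251 and 768 CPM in the Control libraries and 550, 420 and 838 CPM in the SPS libraries (log2 fold change 0.36 ± 0.49, SE), and Sptbn4, a spectrin of the initial segment, had −0.27 ± 0.44. Between replicate numbers 9 of the 14 passed (64.3%, background 14.1%), among them Ank3, the ankyrin that anchors sodium channels at the initial segment, named after its values were seen. It had 255, 180 and 903 CPM in the Control libraries and 392, 131 and 841 CPM in the SPS libraries.

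Of 20 tested calcium channel partners 0 passed in either direction, with a median of −0.13, and 4 (20.0%, background 14.1%) differed between replicate numbers. Cacng3, an AMPA receptor auxiliary protein of the calcium channel gamma family, had 124, 121 and 88.7 CPM in the Control libraries and 96.2, 58.1 and 86.8 CPM in the SPS libraries (log2 fold change −0.47 ± 0.34, SE), and Stac, an adaptor of L-type channels, had 0.93 ± 0.79 at 1.77 to 6.94 CPM. Of 12 genes of intracellular calcium release and entry, 0 passed, the median was 0.00, and 5 (41.7%, background 14.1%) differed between replicate numbers. Stim1, the calcium sensor of the endoplasmic reticulum, had 92.3, 66.0 and 89.3 CPM in the Control libraries and 95.7, 153 and 105 CPM in the SPS libraries. It was higher in every pair, by the most in the pair numbered 2, and 11.6% of all tested genes were higher in all 3 pairs. Its log2 fold change was 0.52 (SE 0.34, unadjusted p = 0.172, edgeR adjusted p = 1.00). Itpr3, an inositol trisphosphate receptor, had −0.50 ± 0.90. For comparison, 71 tested potassium channel genes had a median of −0.05, 0 past the adjusted threshold, and 15 (21.1%, background 14.1%) that differed between replicate numbers.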

How the data were processed

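RNA was sequenced from 6 hippocampal samples after ribosomal RNA depletion with a stranded total RNA kit, per the labels' protocols. CASAVA 1.8 and HISAT2 are named in the submitters' processing notes, which also name the human build hg19 although the identifiers are rat. No quantifier, annotation, rat build or strand setting is given in the sources used here, so reads of antisense and overlapping genes may be mixed. The authors deposited FPKM values and estimated counts for 22062 protein-coding genes. In each library 99.3% to 99.6% of the deposited estimated counts above 0 were whole multiples of a step, within 0.05 reads. The counts were divided by that step and rounded to whole reads.

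The test used edgeR 4.0.16 (R 4.3.3) with TMM, filterByExpr, a quasi-likelihood fit with group as the only term over 12441 genes and Benjamini-Hochberg adjustment. Log2 fold changes are SPS minus Control, and an SE is the absolute fold change over the square root of F. Within-pair log2 differences used CPM + 0.5. The alternatives were limma 3.58.1 on log2(FPKM + 1), where a fold change understates that of low genes, DESeq2 1.42.0, other scalings and filters, and left-out libraries. The edgeR fit was tested on simulated data.

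Deviations from group means correlated between same-numbered samples at 0.43, 0.40 and 0.70 over all tested genes, and at no more than 0.18 between different numbers. Deviations within a group cancel, which pushes the correlations between different numbers down. Log CPM correlated at 0.98 in the pair numbered 1 and 0.96 in the pair numbered 3. Control replicate 2 was closer to SPS replicate 1 (0.88) than to SPS replicate 2 (0.79), so the pair numbered 2 is less certain. On the deviations, which are from the data and not the labels, same-numbered samples were treated as pairs in a second fit that had the replicate block. No pair of libraries agreed within sampling noise.

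Genes given in full were the 2 most abundant per role, the 6 with the smallest p, those with the smallest blocked p among genes moving one way in all pairs, and those without overlap, leaving out what is not reported here. The members, lists and rule were chosen with earlier results of these data known. Other lists were described by the 2 genes with the smallest p. Marker lists of the other cell types were used as library descriptions. Counting floors of 3 reads cover counting error only.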

Additional observations from a re-analysis of the deposited data

How the results depend on the processing

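Under all 15 alternatives 0 of the tested channel genes passed the threshold between SPS and Control, and 0 had an unadjusted p under 0.05. With replicate as a block the count of calls stayed at 0, the members' median log2 fold change was −0.15, and no call changed. Signs of single genes did change. The log2 fold change of Cacna1e, −0.00 on group alone, was 0.28 with the replicate block, 0.00113 with no filter, 0.31 with limma on log2(FPKM + 1), filtered or not, 0.33 with a pseudocount of 0.1, and 0.067 without both libraries numbered 2. That last setting gave 0.16 for Cacna2d1 and 0.025 for Scn2a, and the block gave −0.010 for Scn8a. When 1 library was left out, log2 fold changes ranged from −0.54 to 0.11 for Cacna1a, −0.58 to 1.57 for Cacna1c, −1.26 to 1.86 for Cacna1e, −0.055 to 0.53 for Cacna1h, −1.21 to 0.69 for Cacna2d1, −0.81 to 0.64 for Scn2a, −0.66 to 0.31 for Scn3b and −0.69 to 1.07 for Scn8a. They kept their sign, from −0.87 to −0.19 for Scn4b, −0.92 to −0.20 for Cacna2d3, −0.84 to −0.057 for Cacnb1 and −0.28 to −0.11 for Cacnb3. Differences in share, in percentage points, then ranged from −6.90 to −2.16 for Scn2a, −3.34 to 4.87 for Scn8a, −3.68 to 4.72 for Scn3b, −6.01 to 9.44 for Cacna1e, −5.50 to 9.97 for Cacnb3, −13.8 to 0.215 for Cacna2d3 and −4.20 to 11.9 for Cacna2d1. Members that differed between replicate numbers, 11 in edgeR (14.1% of all genes), were 17 with DESeq2 (27.7% of all genes) and 6 with limma (14.7%). They were 3 with a pseudocount of 0.1 (9.77% of all genes) and 0 without both libraries numbered 3 (0.0307%). When 1 library was left out they were 0 to 22, with 0% to 61.0% of all genes. On FPKM 1 member, not 2, had groups that did not overlap, and the share over all genes was not counted on that scale. Leaving out libraries shows only how the counts depend on them, and the cause of the differences between replicate numbers was not tested. Depth limits the members with few reads, such as Scn4a. These alternatives for replicate numbers and overlap were chosen after seeing the data.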
